A study of Mus musculus with 28 samples.

Results

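The Hox genes of the mouse were followed in intestinal mesenchyme and in intestinal epithelial organoids by RNA-seq. The genes were taken by name, as every gene called Hoxa, Hoxb, Hoxc or Hoxd followed by a number only, which gave 39 of the 55416 genes listed in the tables of TPM, a level scaled for transcript length and for the total of the sample, and 25 of the 29413 genes listed in the table of normalized counts. Of the 28 samples, 20 were small-intestinal organoids of wild-type C57BL/6 mice that had been left untreated (noBMP, 4 samples) or given recombinant BMP2 (4 samples), BMP3, BMP4, BMP5 or BMP7 (3 samples each) at 500 ng/ml for 24 h. A further 6 samples were organoids of the same source and genotype, 3 untreated (CTRL) and 3 given recombinant Tgfb at 500 ng/ml for 24 h (TGFbeta). All organoids had first been grown for 48 h in ENR medium with no BMP or Tgfb added. The last 2 samples were Pdgfra-positive mesenchymal cells of the duodenum from mice of the genotype PdgfraH2BeGFP, in which a nuclear green fluorescent protein reports the Pdgfra gene. One of them (siMCs-FRESH) was untreated. The other (siMCs-HIGH) had been immortalised with the E6 gene of human papillomavirus 16 delivered by a retrovirus, selected with puromycin, sorted on its green fluorescence and expanded in MesenCult medium. It is 1 sorted culture, and the number of animals behind either mesenchymal sample and the time in culture of the fresh one are not given in the sources used here. The labels do not say that replicates came from separate animals or cultures, so p-values measure only the spread between these samples, which may be technical.

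Hox genes encode homeodomain transcription factors that give cells their position along the body axis. They lie in clusters a to d, and genes with the same number in different clusters (paralogues) descend from a common ancestor. Within a cluster the genes are ordered as they are used along the body, with low numbers active towards the head and high numbers added step by step towards the tail, and cells taken from an adult organ often keep the combination of their place of origin. In the gut the combination is best known from the mesenchyme, while the epithelium carries its regional identity largely through the related Cdx genes and other transcription factors. Bone morphogenetic proteins (BMP2, BMP3, BMP4, BMP5 and BMP7) and Tgfb are secreted ligands of a common superfamily with known roles along the axis from crypt to villus tip.

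Hoxa3, Hoxa7 and Hoxa9 lie on the same strand of 1 cluster. With BMP2, Hoxa3 fell and Hoxa9 rose, while Hoxa7 was lower and passed only in some fits. Hoxb4 differed between BMP2 and BMP4. The start regions of these 4 genes, on which the organoid results mostly turn, are printed here. Each is the 300 bases from 250 before to 50 after the RefSeq start of the gene in GRCm38.p6, read 5′ to 3′ on the gene's strand, with CG dinucleotides in capitals. RefSeq windows were matched for 22 of the 39 Hox genes. The Hoxa3 window lies at chr6:52213018-52213317 (minus strand), the Hoxa7 window at chr6:52218524-52218823 (minus strand), the Hoxa9 window at chr6:52227321-52227620 (minus strand) and the Hoxb4 window at chr11:96318017-96318316 (plus strand). That start of Hoxa3 belongs to its long transcript and lies beyond Hoxa6, between Hoxa6 and Hoxa7.
Hoxa3: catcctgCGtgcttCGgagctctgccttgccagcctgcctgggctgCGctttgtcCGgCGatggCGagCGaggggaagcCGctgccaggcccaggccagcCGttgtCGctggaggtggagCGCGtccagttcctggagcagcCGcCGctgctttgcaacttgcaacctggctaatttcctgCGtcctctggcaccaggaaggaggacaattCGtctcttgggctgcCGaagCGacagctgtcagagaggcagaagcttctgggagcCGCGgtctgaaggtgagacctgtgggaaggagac
Hoxa7: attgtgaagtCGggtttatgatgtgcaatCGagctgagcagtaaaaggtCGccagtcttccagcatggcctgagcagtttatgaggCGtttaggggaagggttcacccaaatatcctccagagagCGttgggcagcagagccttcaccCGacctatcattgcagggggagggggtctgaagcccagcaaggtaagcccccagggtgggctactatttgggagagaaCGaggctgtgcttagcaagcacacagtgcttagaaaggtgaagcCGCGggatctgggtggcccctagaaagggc
Hoxa9: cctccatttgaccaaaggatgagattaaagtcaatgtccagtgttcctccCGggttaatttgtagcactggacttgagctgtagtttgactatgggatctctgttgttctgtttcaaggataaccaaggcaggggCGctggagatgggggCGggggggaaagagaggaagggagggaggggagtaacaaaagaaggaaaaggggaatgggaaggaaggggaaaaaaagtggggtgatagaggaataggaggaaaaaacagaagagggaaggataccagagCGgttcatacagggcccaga
Hoxb4: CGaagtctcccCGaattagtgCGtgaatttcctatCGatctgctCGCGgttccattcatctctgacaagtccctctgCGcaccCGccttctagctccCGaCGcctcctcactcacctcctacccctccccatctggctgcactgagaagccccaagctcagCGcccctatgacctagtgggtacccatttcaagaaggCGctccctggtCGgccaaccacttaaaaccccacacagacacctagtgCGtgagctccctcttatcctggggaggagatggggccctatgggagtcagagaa
Hoxa3 had 20 CG dinucleotides and a G+C content of 64.0%, Hoxa7 had 9 and 55.7%, Hoxa9 had 4 and 49.7%, and Hoxb4 had 14 and 58.0%. The median over all 32544 mouse windows of this length was 7.0 CG dinucleotides and 53.0% G+C, and over the 24 windows of Hox genes 14.5 and 57.7%. The letters TTTATG, the core of the site bound by Cdx proteins, were found on either strand in 5 Hox windows (20.8%), those of Hoxa7 and Hoxb8 among them, and in 11.9% of all windows. The letters AGGTCA, a half-site of nuclear receptors such as the retinoic acid receptors, were in 7 Hox windows (29.2%), those of Hoxa5, Hoxb4 and Hoxd8 among them, and in 16.2% of all windows. The letters TGATTTAT, a joint site of HOX and PBX proteins that shares the bases TTTAT with the Cdx core, were in 0 Hox windows and in 0.974% of all. These matches describe letters in a window and are no evidence that a factor binds there.

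The fresh duodenal mesenchyme expressed a wide block of Hox genes that ended at paralogue group 9. At 1 TPM or more stood 20 of the 39 genes, among them Hoxa2 to Hoxa7, Hoxb2 to Hoxb9, Hoxc4, Hoxc5, Hoxc6, Hoxc8 and Hoxd8. A gap lay below them, since the highest of the other 19 (Hoxd4) was at 0.705 TPM, while Hoxa6, near the lower end of the 20, was at 3.25 TPM. The highest level was that of Hoxc6 at 49.4 TPM, followed by Hoxb3 at 32.7 TPM, Hoxb2 at 25.3 TPM, Hoxb7 at 22.0 TPM and Hoxa5 at 21.0 TPM. With 1 sample there is no spread with which neighbours in this order could be told apart. Within the Hoxb cluster every gene from Hoxb2 to Hoxb9 lay between 12.8 TPM (Hoxb5) and 32.7 TPM (Hoxb3), while the outermost genes of that cluster, Hoxb1 and Hoxb13, were listed at 0. In the Hoxa cluster the step came between Hoxa7 at 7.99 TPM and Hoxa9 at 0.018 TPM, and Hoxa10 and Hoxa11 were listed at 0. In the Hoxc cluster it came between Hoxc8 at 8.16 TPM and Hoxc9 at 0.377 TPM. The Hoxd cluster was nearly silent, with Hoxd8 at 7.42 TPM and the other 8 genes at or below 0.705 TPM.

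The immortalised cells kept most of this combination. At 1 TPM or more stood 18 Hox genes, all of them among the 20 of the fresh sample, and the genes that dropped below this level were Hoxa6 and Hoxa7. Hoxb9 was again the gene of the highest number at this level. Over the 39 genes, log2(TPM + 1) correlated between fresh and immortalised cells with a Pearson r of 0.933, and over the 20 genes at 1 TPM or more with 0.777. These are correlations across genes of 1 sample each, and genes are not independent replicates. The number of genes varied little with the level chosen: at 0.5 TPM the fresh and immortalised samples had 21 and 20 Hox genes, and at 5 TPM 18 and 15. At 0.5 TPM the immortalised cells also counted Hoxc9 (0.509 TPM) and Hoxc13 (0.582 TPM), which makes 13 the highest group there.

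**Figure D1:**
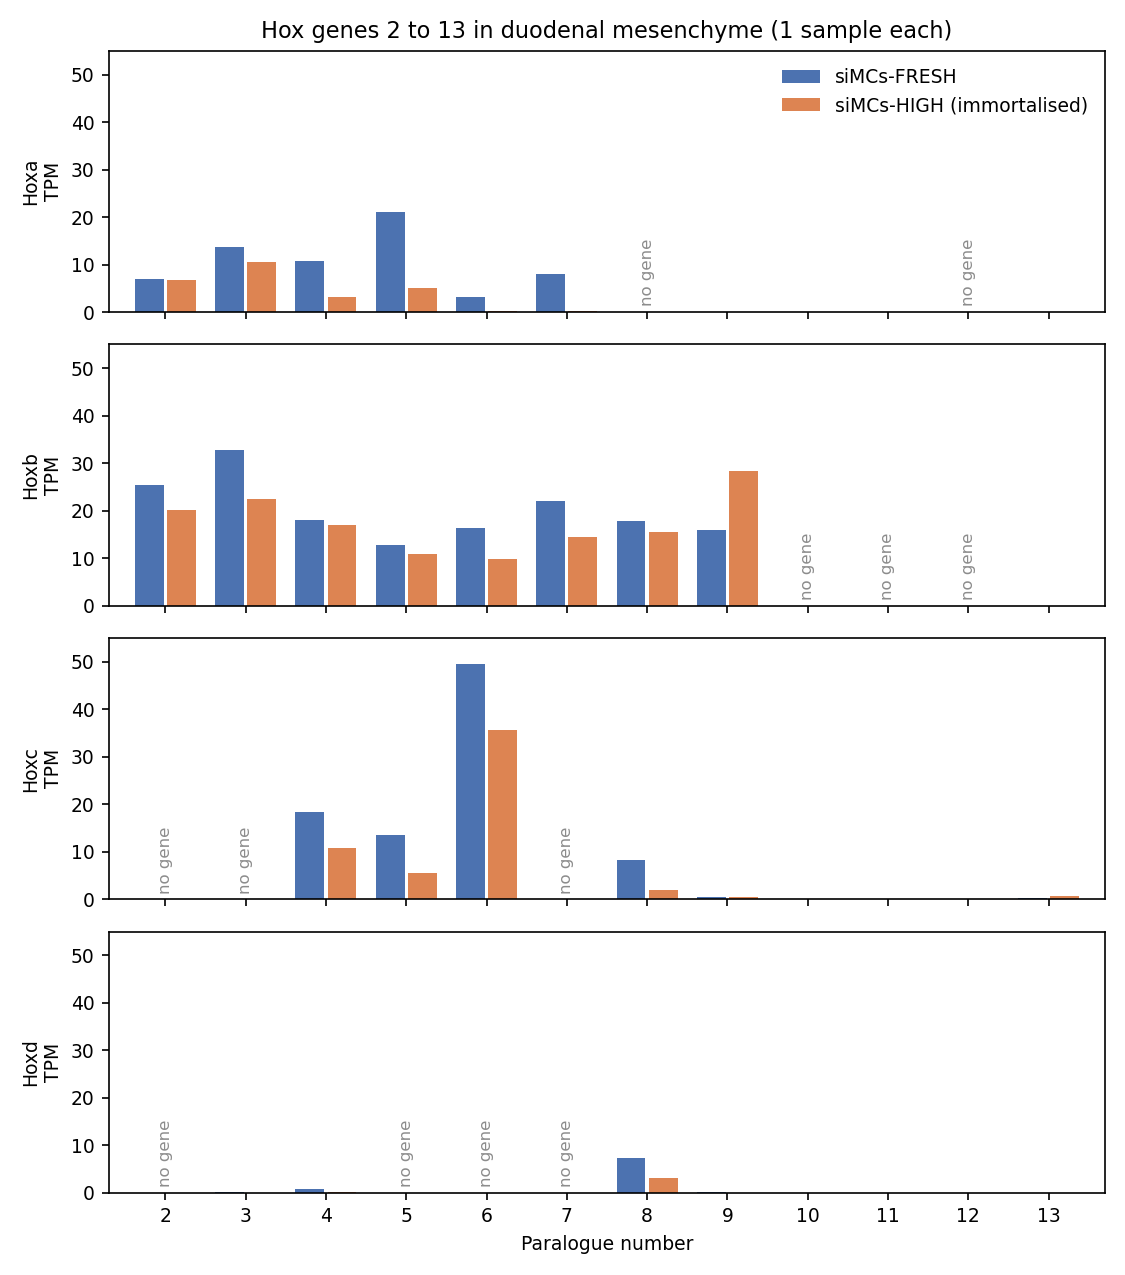
Level (TPM) of the Hox genes of paralogue numbers 2 to 13 in the fresh (blue) and the immortalised (orange) mesenchymal sample, 1 bar per sample, with a panel for each cluster a to d and the paralogue number on the horizontal axis. Visible bars end at group 9, those of Hoxa6 and Hoxa7 nearly vanish in the immortalised one, and Hoxb9 is the only high gene beyond group 8.

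Immortalised cells had lower levels of most of these genes, with the largest differences in the middle of the Hoxa cluster. The summed Hox level was 326.5 TPM in the fresh and 228.4 TPM in the immortalised sample, and 18 of the 20 genes at 1 TPM or more in fresh cells were lower in the immortalised ones. A difference of at least 2-fold on the scale of log2(TPM + 1), among genes at a mean of at least 1 TPM, was reached by 7 of the 20 Hox genes, all lower. This is 35.0%, against 17% of all 13652 genes at that level in either direction and 10.7% in the lower direction. The median log2 difference was -0.55 for the 20 Hox genes and -0.02 for all genes. There is 1 sample per state, so these differences have no replicate check and no test.

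The 7 genes all belong to paralogue groups 4 to 8. Hoxa7 was at 7.99 TPM fresh and 0.322 TPM immortalised, and Hoxa6 at 3.25 and 0.165 TPM. Hoxa5 was at 21.0 and 5.10 TPM and Hoxa4 at 10.7 and 3.26 TPM. These 4 are consecutive genes, so a stretch of the Hoxa cluster was lower as a block, with log2 differences of -1.46 (Hoxa4), -1.85 (Hoxa5), -1.87 (Hoxa6) and -2.77 (Hoxa7). Their neighbours on the low-number side did not share it: Hoxa3 was at 13.7 and 10.6 TPM and Hoxa2 at 7.06 and 6.72 TPM. In the Hoxc cluster, Hoxc8 was at 8.16 and 1.90 TPM and Hoxc5 at 13.4 and 5.51 TPM, while Hoxc6 was at 49.4 and 35.7 TPM and Hoxc4 at 18.4 and 10.9 TPM. The only Hoxd gene at this level, Hoxd8, was at 7.42 and 3.17 TPM. In GENCODE M21, Hoxa3 overlaps Hoxa4, Hoxa5 and Hoxa6, and Hoxc5 overlaps Hoxc6, Hoxc8, Hoxc9 and Hoxc10 on the same strand, so reads of these genes could have been split between them and their single values are uncertain.

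The Hoxb cluster differed little. None of its 8 genes at a mean of 1 TPM or more passed 2-fold, and their median log2 difference was -0.27, against -1.46 for the 7 Hoxa genes, -0.93 for the 4 Hoxc genes and -1.02 for Hoxd8. Hoxb4 was at 18.1 TPM fresh and 16.9 TPM immortalised, Hoxb8 at 17.9 and 15.4 TPM, Hoxb5 at 12.8 and 10.8 TPM and Hoxb2 at 25.3 and 20.1 TPM. Hoxb3 was at 32.7 and 22.4 TPM, Hoxb7 at 22.0 and 14.4 TPM and Hoxb6 at 16.3 and 9.86 TPM. Hoxb9, the outermost gene that is still expressed, was higher in the immortalised cells at 28.3 TPM than in the fresh cells at 15.9 TPM, a log2 difference of 0.79 that stays under 2-fold.

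The make-up of the Hox signal shifted accordingly. The Hoxb cluster held 49.3% of the summed Hox TPM in fresh cells and 60.5% in immortalised ones, while Hoxa went from 20.5% to 13.9%, Hoxc from 27.6% to 24.1% and Hoxd from 2.6% to 1.45%. By paralogue groups, the middle groups 4 to 8 held 69.7% and 58.5%, groups 1 to 3 held 25.1% and 28.7%, and groups 9 to 13 held 5.17% and 12.9%. Nearly all of the last share was Hoxb9.

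**Figure D2:**
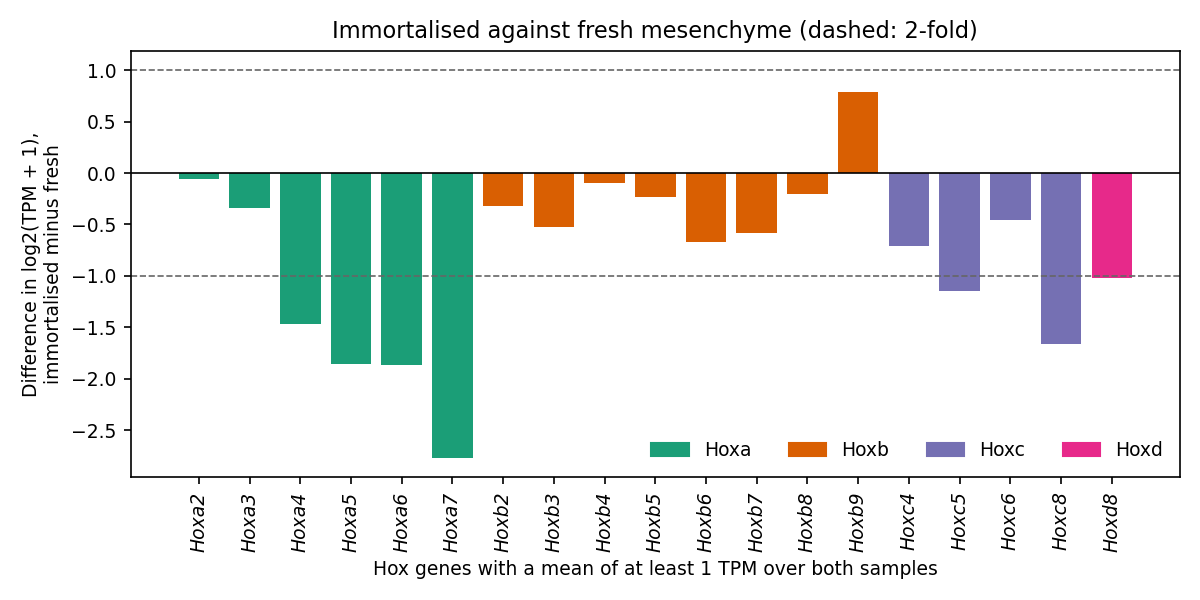
Difference of log2(TPM + 1), immortalised minus fresh, for Hox genes at a mean of at least 1 TPM, 1 sample per state, coloured by cluster, with dashed lines at 2-fold in either direction. The bars of Hoxa4 to Hoxa7, Hoxc5, Hoxc8 and Hoxd8 cross the lower line, and no bar crosses the upper one.

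The 2 mesenchymal samples also differed in cell type markers, and fewer cells of a type and less RNA per cell cannot be told apart in bulk samples. All 12 mesenchymal markers were present in both, but their sum was 17700 TPM fresh and 6180 TPM immortalised, with 3 past 2-fold higher and 7 lower. Pdgfra was at 37.5 and 113 TPM and Thy1 at 93.7 and 474 TPM, while Col3a1 was at 3733 and 427 TPM, Dcn at 3201 and 725 TPM and Lum at 251 and 5.76 TPM. The 5 smooth muscle markers summed to 8340 and 10900 TPM, with Acta2 at 5112 and 7499 TPM and Des at 197 and 1.13 TPM. The summed level of the 3 mesothelial markers was 120 TPM fresh and 0.281 TPM immortalised, of the 6 endothelial markers 23.2 and 1.87 TPM, of the 7 immune markers 119 and 10.8 TPM, and of the 6 markers of glia and neurons 11.6 and 1.55 TPM. The 12 epithelial markers summed to 35.3 and 7.12 TPM. Among them, Cdh1, Vil1 and Alpi were at 0 in the fresh sample. Krt18 was at 19.2 TPM fresh and 0.087 TPM immortalised, Krt8 at 9.10 TPM and a listed 0, and Krt19 at 5.37 and 6.65 TPM. The part of cell types in the Hox differences was not tested.

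Non-coding transcripts of the clusters mostly stayed within 2-fold. Hotairm1, a transcript of the Hoxa cluster, was at 54.4 TPM fresh and 59.5 TPM immortalised, and Hoxb5os, opposite to Hoxb5 and Hoxb6, at 8.96 and 24.4 TPM. Hoxaas3, opposite to Hoxa3 to Hoxa7, was lower at 4.16 and 1.90 TPM, and so was Hoxd3os1, opposite to Hoxd3, Hoxd4 and Hoxd8, at 2.36 and 0.736 TPM. Neither of them passed 2-fold. The Hox genes opposite to Hoxaas3 and Hoxd3os1 were lower too, though not all past 2-fold, as were Hoxb5 and Hoxb6. Hotair, Hottip and Hoxa11os, transcripts of the high-number ends, were listed at 0 in both samples. Of the 9 transcripts, 6 had a mean of 1 TPM or more, of which 1 (Hoxb5os) passed 2-fold upwards and 0 downwards. This is 16.7%, against 17% of all genes either way. Whether the counting used strand is not given in the sources used here, and 14 of the 39 Hox genes overlap a gene on the opposite strand in GENCODE M21, so reads of such pairs cannot be told apart.

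Partners and regulators of Hox genes were given by lists. HOX proteins bind DNA together with homeodomain cofactors of the PBX, MEIS and PKNOX families. Of 9 cofactor genes at a mean of 1 TPM or more, 0 were past 2-fold higher and 2 lower in immortalised cells, 22.2% against 17% of all genes, namely Meis1 (45.2 to 17.3 TPM) and Meis2 (98.7 to 47.1 TPM). All 8 genes of the list of Cdx, ParaHox and Evx genes, the homeobox relatives of the Hox clusters, were below a mean of 1 TPM. Retinoic acid is a classical inducer of low-number Hox genes. Of 13 genes of retinoic acid synthesis, binding and reception, 2 were past 2-fold higher and 6 lower (61.5%, against 17% of all genes either way). Aldh1a2, an enzyme that makes retinoic acid, was at 43.6 TPM fresh and 0.205 TPM immortalised, Dhrs3, which reduces retinal, at 374 and 15.3 TPM, and the receptor gene Rarb at 18.4 and 0.714 TPM. In the other direction, Crabp1 was at 0.678 and 7.84 TPM and Aldh1a1 at 30.1 and 106 TPM.

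Other transcription factors of gut mesenchyme also differed, 62.5% of them past 2-fold, against 17% of all genes. Of 16 such genes at a mean of 1 TPM or more, 2 were past 2-fold higher, among them Prrx1 (7.64 to 127 TPM), and 8 lower. The largest differences downwards were those of Tcf21 (45.6 TPM to a listed 0), Gata6 (11.4 to 0.760 TPM) and Hand2 (32.2 to 8.65 TPM). Polycomb and trithorax proteins keep Hox genes silent or active. Of 22 such genes, 1 was past 2-fold higher (Eed, 52.4 to 114 TPM) and 0 lower, 4.55% against 17% of all genes. Of 8 genes that flank the clusters, 0 passed in either direction.

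Organoids had little Hox RNA. The summed Hox level was 3.05 to 3.89 TPM in the 3 CTRL samples (3.46 ± 0.424, SD, n = 3), against 326.5 TPM in the fresh mesenchyme. The mesenchymal and organoid tables were scaled separately, so these levels stand side by side without a test. Of the 39 genes, 22 were above 0 in at least 1 of the 6 samples and 17 were listed at 0 in all. The highest means among CTRL samples were those of Hoxa3 at 0.762 ± 0.219 TPM and Hoxb2 at 0.629 ± 0.0334 TPM (SD, n = 3), followed by Hoxb7 at 0.313 ± 0.132 TPM and Hoxb4 at 0.306 ± 0.143 TPM (SD, n = 3). Hoxa3 and Hoxb2 overlapped in their samples, and so did Hoxb7 and Hoxb4. A value of 1 TPM was reached only by Hoxa3 in CTRL III (1.00 TPM) and by Hoxb3 in TGFbeta II (1.06 TPM). Mesenchymal markers summed to 6.07 to 10.0 TPM in these samples and epithelial markers to 8250 to 20400 TPM. Most of the mesenchymal sum was Vim, at 4.86 to 8.80 TPM. Of the 12 mesenchymal markers, 7 were above 0 in CTRL and 7 in TGFbeta samples. Col1a2, Col3a1, Dcn, Lum and Foxf1 were listed at 0 in all 6. The part of any mesenchymal cell in the Hox values was not tested.

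The combination in the organoids differed from that of the mesenchyme in several respects. Hoxc genes, which held 27.6% of the fresh mesenchymal Hox signal, held 0 to 0.933% in CTRL samples. Hoxc4, Hoxc5 and Hoxc8, all above 8 TPM in the fresh mesenchyme, were at 0 in all 6 organoid samples. Hoxb8, Hoxb9 and Hoxd8, at 17.9, 15.9 and 7.42 TPM in the fresh mesenchyme, were listed at 0 in every CTRL sample. In TGFbeta samples they reached at most 0.084, 0.025 and 0.159 TPM. On the other side, Hoxa10, listed at 0 in both mesenchymal samples, was above 0 in all 6 organoid samples, at 0.158, 0.031 and 0.099 TPM in CTRL and 0.190, 0.141 and 0.103 TPM in TGFbeta. The Hoxa cluster held 38.0% to 55.4% of the organoid signal and Hoxb 42.5% to 60.8% in CTRL samples. Paralogue groups 1 to 3 held 45.9% to 56.3% there, against 25.1% in the fresh mesenchyme. Across the 39 genes, fresh mesenchyme and the CTRL mean correlated with an r of 0.515 on the log2(TPM + 1) scale.

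**Figure D3:**
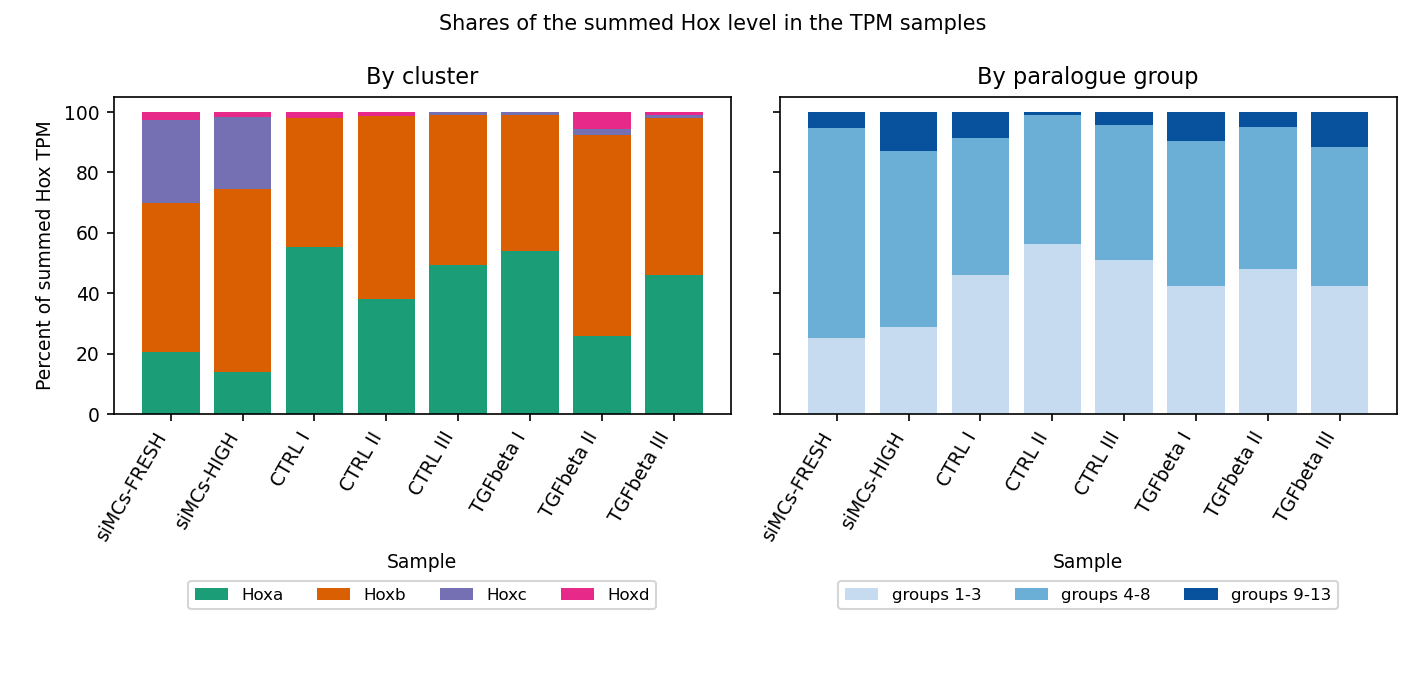
Share of the summed Hox TPM (percent) held by each cluster (left) and by paralogue groups 1 to 3, 4 to 8 and 9 to 13 (right) in the fresh and immortalised mesenchymal samples and each of the 6 organoid samples. Hoxc holds 27.6% and 24.1% in the mesenchymal samples and at most 1.77% in organoids.

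Tgfb gave no Hox gene that passed the test. No Hox gene reached the mean of 1 TPM required for testing, a level at which 12959 genes were tested. Without that filter, limma called 0 of 22 Hox genes at an adjusted p of 0.05, against 29.8% of all 26322 genes, and 1 of 22 had an unadjusted p under 0.05. That gene was Hoxa3, at 0.704, 0.578 and 1.00 TPM in CTRL samples and 0.563, 0.307 and 0.376 TPM in TGFbeta samples. The groups did not overlap, and the log2 difference was -0.31 (SE 0.12, adjusted p = 0.125, limma). Hoxb2, at 0.667, 0.613 and 0.606 TPM in CTRL and 0.479, 0.557 and 0.472 TPM in TGFbeta, also did not overlap (log2 difference -0.12, SE 0.07, adjusted p = 0.273, limma). The summed Hox level was 3.21 to 4.48 TPM with Tgfb (3.85 ± 0.638, SD, n = 3), which overlaps CTRL. At values of this size the depth, which TPM does not keep, limits what can be detected.

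In the BMP experiment the values are read counts scaled by a size factor of each sample, so a gene is compared between samples and not with other genes. The 20 samples held 21356032 to 24783573 reads, of which 43 to 324 per sample fell on Hox genes, and 1 read corresponds to 0.826 to 1.28 normalized counts. Of the 25 Hox genes listed, 10 were Hoxa, 9 Hoxb, 2 Hoxc and 4 Hoxd, and no value of a Hoxc or Hoxd gene exceeded 4.44. The mean over all samples was at least 10, the level required for testing, in 6 genes (Hoxa3, Hoxa7, Hoxa9, Hoxa10, Hoxb3 and Hoxb4), from 1 to under 10 in 9, and under 1 in 10.

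The summed Hox count was lowest in BMP4 organoids and highest in BMP5 and BMP7 organoids, and is given as a description with no test. In noBMP it was 152 ± 17.6 normalized counts (SD, n = 4). BMP2 organoids had 121 ± 18.1 (SD, n = 4), BMP3 organoids 140 ± 29.4 and BMP4 organoids 77.8 ± 26.0 (SD, n = 3 each). Organoids given BMP5 had 210 ± 26.8 and those given BMP7 208 ± 75.8 (SD, n = 3 each). The BMP4 range (49.0 to 99.6) lay below that of noBMP (129 to 171) and the BMP5 range (191 to 240) above it, while BMP2 (102 to 144), BMP3 (114 to 172) and BMP7 (150 to 294) overlapped noBMP. For BMP2 the overlap depends on the scaling. Before scaling, BMP2 samples held 80 to 127 Hox reads and noBMP samples 146 to 193, which do not overlap. A read counted as 1.14 to 1.28 normalized counts in BMP2 samples and as 0.826 to 0.888 in noBMP samples. Paralogue groups 9 to 13 held 9.59% to 23.3% of the sum in noBMP and 11.5% to 21.2% with BMP3. They held 32.5% to 57.5% with BMP2 and 34.9% to 44.0% with BMP4, which do not overlap noBMP. With BMP5 (23.1% to 32.1%) and BMP7 (20.7% to 40.4%) the ranges overlapped noBMP.

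Hoxa3, a gene of the low-number end of its cluster, had the largest response among these 6 genes. Its normalized counts were 26.6, 36.5, 41.7 and 28.9 in noBMP, 3.41, 0, 5.88 and 3.80 with BMP2, and 4.74, 2.28 and 4.79 with BMP4. With BMP3 they were 25.8, 26.2 and 28.9, with BMP5 43.1, 25.0 and 21.9, and with BMP7 50.8, 51.0 and 33.7. Every BMP2 and BMP4 sample lay far below every other sample of the experiment. Hoxa3 fell by 3.29 on the log2(count + 1) scale with BMP2 (SE 0.44, adjusted p = 1.95e-06, lower in 4 of 4 samples) and fell by 2.83 with BMP4 (SE 0.48, adjusted p = 4.38e-05, lower in 3 of 3), by limma with Benjamini-Hochberg adjustment. BMP2 and BMP4 were not shown to differ from each other (log2 difference -0.46, SE 0.48, adjusted p = 0.415, limma). The BMP5 and BMP7 changes of -0.19 and 0.42 (SE 0.48 each) did not pass.

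Hoxa9, the neighbour of Hoxa7 and the first of the high-number genes of its cluster, had the opposite response to BMP2. Its values were 22.2, 11.6, 5.32 and 24.8 in noBMP, 46.5, 21.7, 29.4 and 54.4 with BMP2, 24.0, 10.1 and 6.13 with BMP3, and 29.6, 11.4 and 20.3 with BMP4. With BMP5 they were 36.8, 36.1 and 43.8 and with BMP7 78.9, 30.1 and 22.1. The BMP5 samples lay above all noBMP samples, while BMP2 and BMP7 each overlapped noBMP. Hoxa9 rose by 1.31 with BMP2 (SE 0.50, adjusted p = 0.0228, limma). That call was lost without BMP2 II (1.19, adjusted p = 0.0581), BMP2 VI (1.12, adjusted p = 0.0693), noBMP III (1.24, adjusted p = 0.0515) or noBMP IV (0.90, adjusted p = 0.101), and when all samples were scaled to the same total (0.88, adjusted p = 0.106, limma). The changes with BMP5 (1.43, SE 0.53, adjusted p = 0.0567) and BMP7 (1.38, SE 0.53, adjusted p = 0.0555) were of the same size and missed the threshold in limma. With the replicate number as a block, which pairs these samples, both passed, with 1.16 (adjusted p = 0.0203) for BMP5 and 1.11 (adjusted p = 0.0213) for BMP7. The BMP5 change also passed without noBMP II (1.64, adjusted p = 0.0443) or noBMP VI (1.70, adjusted p = 0.0382), and the BMP7 change without BMP7 VI (1.75, adjusted p = 0.0392), noBMP II (1.60, adjusted p = 0.0421) or noBMP VI (1.65, adjusted p = 0.0358, limma). Counting tests on the recovered reads called the BMP7 change (edgeR adjusted p = 0.0349, DESeq2 adjusted p = 0.0237) and not the BMP5 change (edgeR 0.072, DESeq2 0.0556).

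Hoxb4 separated BMP4 from BMP2. It stood at 9.77, 12.4, 16.9 and 17.3 in noBMP, 12.5, 16.6, 17.6 and 22.8 with BMP2 and 4.74, 5.70 and 8.38 with BMP4. The other ligands gave 10.7, 5.91 and 11.4 (BMP3), 15.2, 16.7 and 20.1 (BMP5) and 12.7, 13.7 and 12.5 (BMP7). All BMP4 samples were below all noBMP and BMP2 samples. Hoxb4 fell by 1.05 with BMP4 (SE 0.30, adjusted p = 0.00518), did not pass with BMP2 (0.29, SE 0.28, adjusted p = 0.362), and was higher with BMP2 than with BMP4 by 1.34 (SE 0.30, adjusted p = 0.000727, limma). Leaving out any 1 sample of the groups compared did not end either call.

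Hoxb3, the neighbour of Hoxb4, also fell with BMP4. Its values were 13.3, 16.6, 9.76 and 10.7 in noBMP, 7.11, 3.42 and 5.98 with BMP4, and 10.2, 15.3, 8.23 and 3.80 with BMP2. With BMP3 they were 16.0, 15.2 and 7.00, with BMP5 15.2, 19.5 and 18.2, and with BMP7 13.6, 10.9 and 11.5. The BMP4 samples did not overlap noBMP, and the change was -1.08 (SE 0.39, adjusted p = 0.0203, limma). Without BMP4 III it was -0.83 (adjusted p = 0.107) and without noBMP III -0.95 (adjusted p = 0.0589), and quantile normalization gave -0.81 (adjusted p = 0.0778, limma), so this call rests on single samples. The BMP2 value of -0.49 (SE 0.36) did not pass.

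Hoxa7 and Hoxa10 varied widely between replicates. Hoxa7 was at 26.6, 14.9, 7.98 and 22.3 in noBMP, 7.95, 7.67, 7.06 and 10.1 with BMP2, 8.30, 2.28 and 14.4 with BMP4, and 32.0, 18.6 and 12.3 with BMP3. With BMP5 it was at 46.6, 22.2 and 25.5 and with BMP7 at 49.9, 16.4 and 21.2. Its BMP4 change of -1.16 (SE 0.51, adjusted p = 0.0552, limma) became -1.37 (adjusted p = 0.00449) with the replicate block. Without BMP4 VI it was -1.66 (adjusted p = 0.0134) and without noBMP IV -1.48 (adjusted p = 0.0196). The BMP2 change of -0.93 (SE 0.48) did not pass, and without noBMP IV it was -1.25 (adjusted p = 0.0284, limma). Hoxa10 was at 16.9, 4.98, 2.66 and 8.26 in noBMP, 28.4, 6.39, 22.4 and 13.9 with BMP2, 8.30, 1.14 and 8.38 with BMP4, and 8.89, 7.60 and 5.25 with BMP3. With BMP5 it was at 15.2, 12.0 and 12.8 and with BMP7 at 34.5, 6.38 and 7.70. No change against noBMP passed for Hoxa10, and the BMP2 change of 1.10 (SE 0.60) did so only without BMP2 III (1.48, adjusted p = 0.04) or noBMP II (1.50, adjusted p = 0.0378, limma). BMP2 was above BMP4 by 1.54 (SE 0.65, adjusted p = 0.0449, limma), a call lost without BMP2 II (1.26, adjusted p = 0.119), BMP2 IV (1.37, adjusted p = 0.0991), BMP2 VI (1.59, adjusted p = 0.0593) or BMP4 III (0.83, adjusted p = 0.293).

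**Figure D4:**
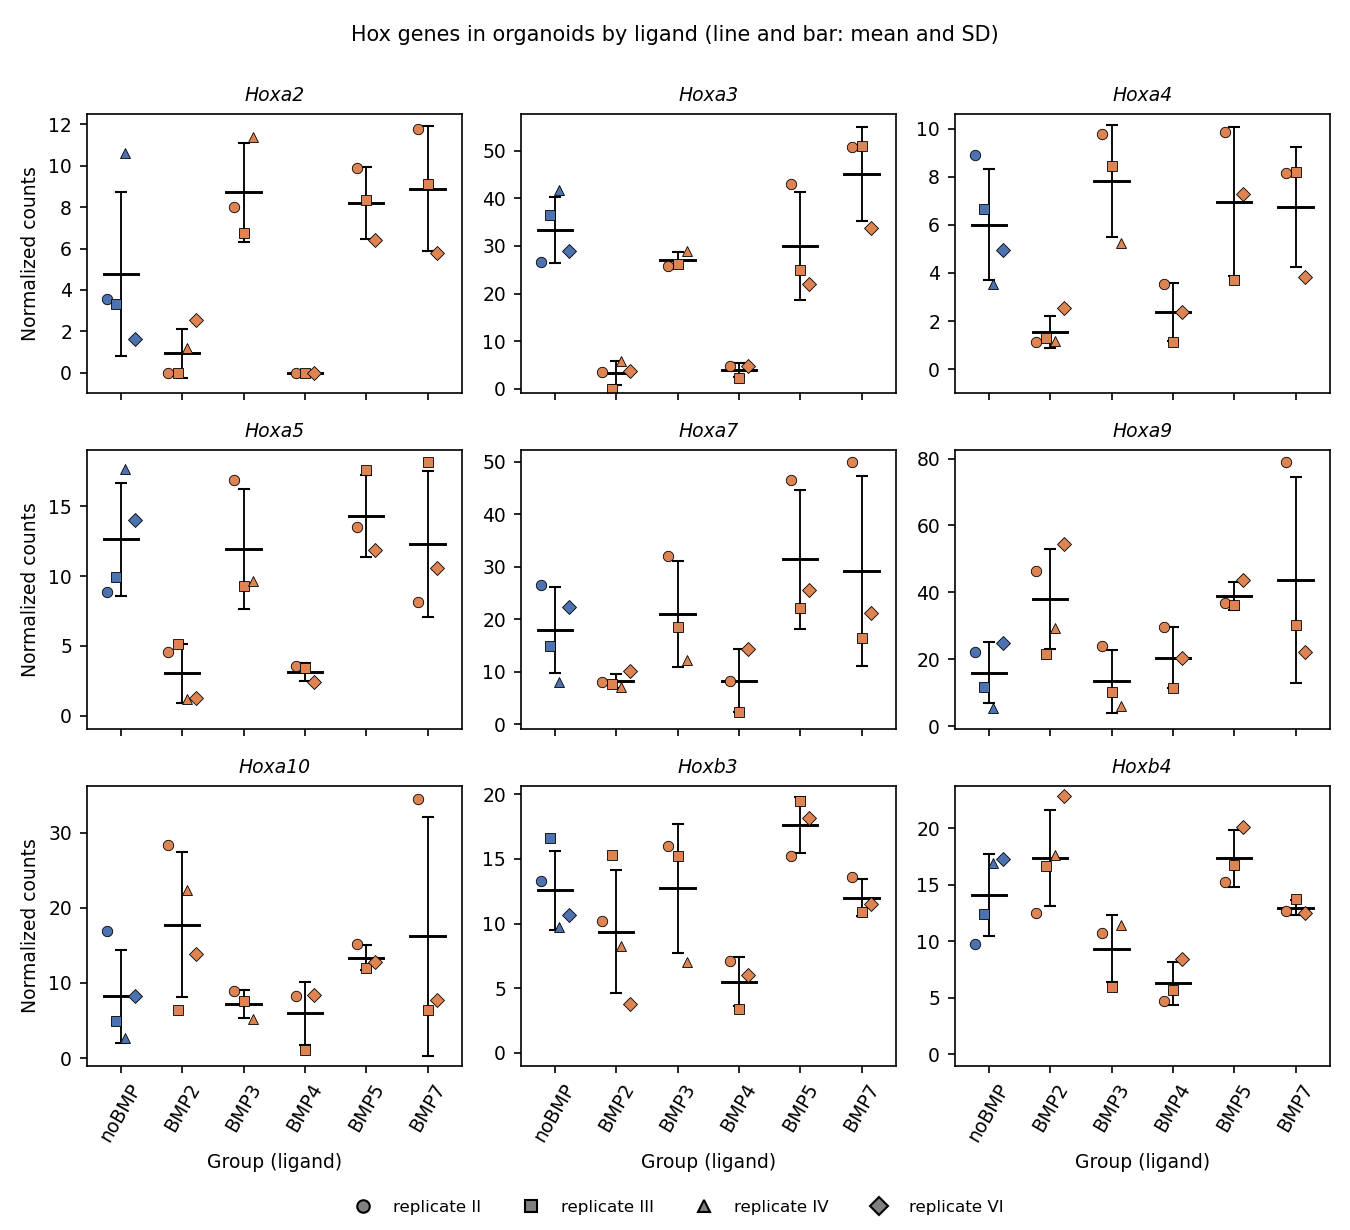
Normalized counts of 9 Hox genes (the 6 at a mean of at least 10, and Hoxa2, Hoxa4 and Hoxa5) in each of the 20 organoid samples of the BMP experiment, 1 panel per gene with its own scale, with the group on the horizontal axis, a symbol per replicate number, and a line and bar for the mean and SD. Hoxa3 sits between 0 and 5.88 in the 7 BMP2 and BMP4 samples and between 21.9 and 51.0 in all others, while Hoxa9 reaches its highest values with BMP7, BMP2 and BMP5.

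Counted over the 6 genes, limma called 2 with BMP2 (Hoxa9 higher, Hoxa3 lower), where 75.1% of all 14746 genes tested were called. With BMP4 it called 3, all lower, where 65.1% of all genes were called and 31.4% were lower. With BMP5 it called 0 (26.3% of all genes) and with BMP7 0 (32.4%), with 1 Hox gene each (Hoxa9) at an unadjusted p under 0.05. For BMP5 edgeR and DESeq2 also called 0, and for BMP7 both called 1. With the replicate number as a block, which pairs these samples, limma called Hoxa9 with BMP5 and with BMP7. With BMP3, limma, edgeR and DESeq2 called 0 Hox genes, none had an unadjusted p under 0.05 in limma, and limma called 0% of all genes (110 at an unadjusted p under 0.05). BMP2 and BMP4 differed in 2 of the 6 (66.8% of all genes). Across the 5 ligands, limma's moderated F-test called 5 of the 6, all but Hoxa10 (84.1% of all genes). In that test Hoxa9 missed the threshold when 1 of 7 samples was left out (BMP2 II or VI, BMP3 III or IV, or any BMP5 sample, with adjusted p from 0.05 to 0.156), and Hoxb3 without BMP4 III (0.0801) or BMP5 III (0.0535, limma). Most genes of the organoids were called in several of these comparisons, so the counts mark nothing particular to Hox genes. The median log2 change of the 6 genes was -0.10 under BMP2 and -1.07 under BMP4, against -0.03 and 0.04 for all genes. It was 0.65 under BMP5 and 0.53 under BMP7, against -0.03 and -0.05. All these comparisons share the noBMP samples.

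Genes too low for that test were examined with all 29413 genes in the fit. The low-number Hoxa genes resembled Hoxa3. Hoxa2 had 3.55, 3.32, 10.6 and 1.65 normalized counts in noBMP, 0, 0, 1.18 and 2.53 with BMP2 and no read in any of the 3 BMP4 samples, which is at least 4.06-fold lower than the noBMP mean if 3 reads over the group are taken as the limit. It was at 5.77 to 11.8 with BMP3, BMP5 and BMP7. Hoxa5 had 8.88, 9.96, 17.7 and 14.0 in noBMP, 4.54, 5.11, 1.18 and 1.27 with BMP2 and 3.56, 3.42 and 2.39 with BMP4, so neither treated group overlapped noBMP. Hoxa4 had 8.88, 6.64, 3.55 and 4.96 in noBMP, 1.14, 1.28, 1.18 and 2.53 with BMP2 and 3.56, 1.14 and 2.39 with BMP4.

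In that fit, limma called 8 of 25 Hox genes with BMP2 (43.4% of all genes, 22% lower), 5 of them lower and 3 higher. Lower were Hoxa2 (-1.57, SE 0.47, adjusted p = 0.00934), Hoxa3, Hoxa4 (-1.44, SE 0.41, adjusted p = 0.0061), Hoxa5 (-1.88, SE 0.41, adjusted p = 0.00071) and Hoxb2 (-1.63, SE 0.42, adjusted p = 0.00275). Among the higher were Hoxa9 and Hoxd9, the latter on 5 reads over the 4 BMP2 samples and none in noBMP. With BMP4 limma called 5, all lower (34.9% of all genes, 16.8% lower), namely Hoxa2 (-2.31, SE 0.51, adjusted p = 0.000988), Hoxa3, Hoxa5 (-1.69, SE 0.45, adjusted p = 0.00458), Hoxb3 (adjusted p = 0.0496) and Hoxb4 (adjusted p = 0.0201). It called 0 of 25 with BMP5 (11.6% of all genes, 2 Hox genes at an unadjusted p under 0.05) and 0 with BMP7 (14.8%, 1 Hox gene). BMP2 and BMP4 differed in 2 (Hoxb4 and Hoxd9, 37.3% of all genes), and the F-test among ligands called 7 (48.5%). Hoxa2, Hoxa3 and Hoxa5 were lower with both BMP2 and BMP4. Hoxaas3, the transcript opposite to Hoxa3 to Hoxa7, fell by 2.31 with BMP2 (SE 0.52, adjusted p = 0.000819) and fell by 2.16 with BMP4 (SE 0.56, adjusted p = 0.00383, limma). By GENCODE M21, Hoxa4 and Hoxa5 each overlap Hoxa3 and Hoxaas3, so reads of these genes may have been shared. Hoxa2 overlaps none of these, but on the same strand it overlaps Gm28308, as do Hoxa3 to Hoxa6. Reads of Hoxa2 may thus have been shared with that gene.

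**Figure D5:**
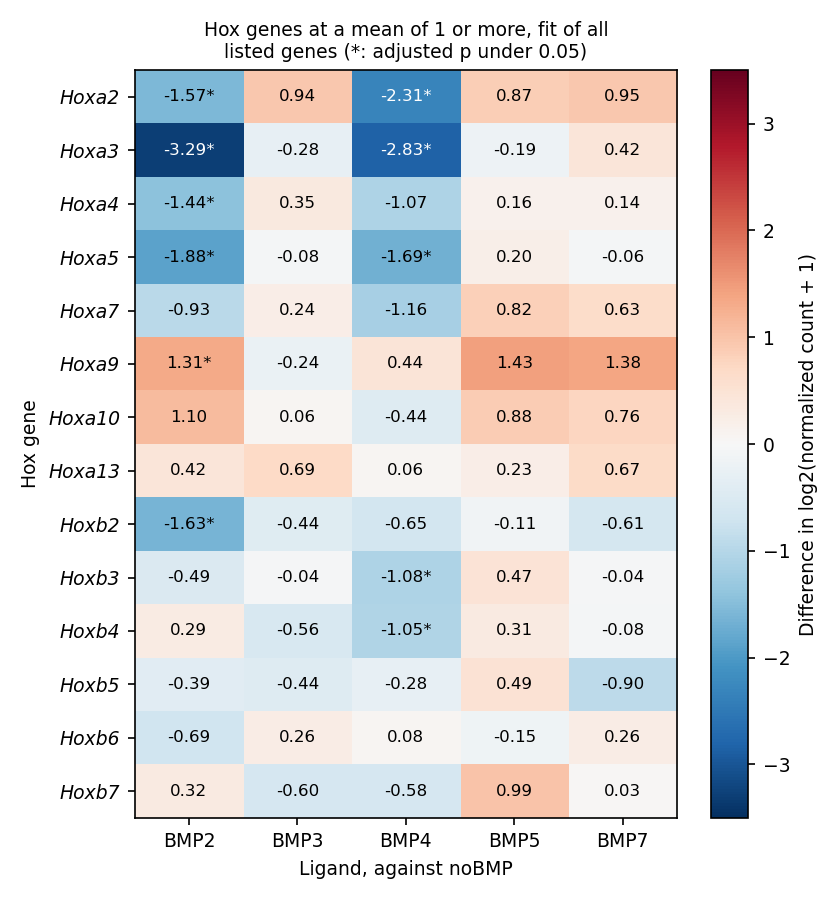
Difference in log2(normalized count + 1) against noBMP for Hox genes at a mean of at least 1 (rows) under each ligand (columns), from limma with all 29413 listed genes in the fit, in colour and printed, with an asterisk where the adjusted p was under 0.05. Hoxa2 to Hoxa5 are lower with BMP2 and BMP4 (all but Hoxa4 with BMP4 marked), Hoxa9 is marked higher with BMP2, and the columns of BMP3, BMP5 and BMP7 hold no asterisk.

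Hox cofactors and relatives were tested in the same organoids. Of 7 cofactor genes tested, BMP2 raised 2 and lowered 3, BMP4 raised 3 and lowered 3, and BMP5 and BMP7 raised 2 each. Of all genes tested, 75.1%, 65.1%, 26.3% and 32.4% were called with BMP2, BMP4, BMP5 and BMP7. Meis3 rose in all 4 comparisons, by 2.73 after BMP2 (SE 0.23, adjusted p = 3.71e-09), 1.90 after BMP5 (SE 0.25, adjusted p = 2e-05), 1.82 after BMP7 (SE 0.25, adjusted p = 2.18e-05) and 0.79 after BMP4 (SE 0.25, adjusted p = 0.00971, limma), and also with Tgfb by 1.97 (SE 0.22, adjusted p = 0.000509). Pbx3 fell by 1.98 with BMP2 (SE 0.20, adjusted p = 3.26e-08) and fell by 1.77 with BMP4 (SE 0.21, adjusted p = 7.86e-07, limma).

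Cdx1 and Cdx2 encode the homeodomain factors that give the intestinal epithelium its identity and that activate Hox genes in the embryo. Cdx1 fell by 2.46 with BMP2 (SE 0.12, adjusted p = 3.58e-12), by 1.05 with BMP4 (SE 0.13, adjusted p = 1.55e-06), by 0.62 with BMP5 and 0.67 with BMP7, and by 0.93 with Tgfb (SE 0.07, adjusted p = 9.88e-05, limma). Cdx2 fell by 0.43 with BMP2 (SE 0.17, adjusted p = 0.0309) and by 0.64 with Tgfb (SE 0.10, adjusted p = 0.00236) and rose by 0.84 with BMP4 (SE 0.18, adjusted p = 0.000552, limma). Pdx1, a duodenal ParaHox gene, rose by 1.48 with BMP4 (SE 0.22, adjusted p = 9.76e-06) and did not pass with the other BMPs.

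Some genes of the retinoic acid axis had large changes. Of 11 tested, BMP2 raised 5 and lowered 4 (75.1% of all genes called), BMP4 raised 7 and lowered 1 (65.1%), BMP5 raised 4 and lowered 2 (26.3%), and BMP7 raised 4 (32.4%). Aldh1a3, which makes retinoic acid, rose by 8.66 with BMP2 (SE 0.34, adjusted p = 3.71e-13), 5.40 with BMP7, 4.88 with BMP5 and 2.01 with BMP4, and by 5.90 with Tgfb (SE 0.10, adjusted p = 1.71e-06, limma). Its relative Aldh1a1 fell by 3.72 with BMP2 (SE 0.50, adjusted p = 1.62e-06) and rose by 2.01 with BMP4 (SE 0.53, adjusted p = 0.00285, limma). The receptor gene Rarb fell by 3.30 with BMP2 (SE 0.43, adjusted p = 1.22e-06) and did not pass with BMP4 (-0.25, SE 0.46, limma). With Tgfb, 5 of 9 tested genes of the list rose and 3 fell, where 56.7% of all 12959 genes tested were called.

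Of the 22 Polycomb and trithorax genes, all were tested. BMP2 raised 7 and lowered 10 (75.1% of all genes called), BMP4 raised 3 and lowered 12 (65.1%), BMP5 raised 1 and lowered 2 (26.3%), BMP7 raised 3 and lowered 3 (32.4%), and Tgfb raised 3 and lowered 9 (56.7%). These counts are near the shares over all genes for BMP2, BMP4 and Tgfb. Chromobox genes, whose products are subunits of Polycomb complexes, were among those that fell most. Cbx6 fell by 4.20 with BMP4 (SE 0.21, adjusted p = 2.87e-11) and by 1.96 with BMP2 (SE 0.20, adjusted p = 3.99e-08), and Cbx7 by 2.32 with BMP4 and 1.91 with BMP2 (limma). Ezh1, a Polycomb methyltransferase, rose by 1.06 with BMP2 (SE 0.10, adjusted p = 1.41e-08) and 0.83 with BMP4 (SE 0.11, adjusted p = 1.91e-06, limma). With BMP3, none of the genes of these lists passed in limma. The epithelial markers summed to 193000 to 216000 normalized counts in noBMP, 756000 to 985000 with BMP2 and 548000 to 587000 with BMP4, and mesenchymal markers to 164 to 254, 81.9 to 111 and 342 to 368. The genes of a list differed in direction. Prrx1 was at 28.2 to 64.4 in noBMP and 309 to 338 with BMP4, while Vim was at 119 to 180 in noBMP, 31.6 to 37.6 with BMP2 and 19.4 to 26.1 with BMP4. Of the 12 epithelial markers, 8 rose and 4 fell with BMP2 and 9 rose and 1 fell with BMP4, the stem cell marker Lgr5 falling from 3150 to 5210 in noBMP to 3.53 to 17.7 with BMP2 and 13.2 to 34.4 with BMP4. The part of cell types in the Hox changes was not tested.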

How the data were processed

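RNA-seq libraries (KAPA mRNA kit, 75-nt single-end, NextSeq 500, per the labels' protocols) came from 26 organoid and 2 mesenchymal samples. The submitters' processing notes name Trim Galore, Salmon, DESeq2 and GRCm39 without versions or roles. Values of the BMP experiment were deposited as a signal. They behave as read counts per gene over a scaling factor of each sample: all 180721 low values (up to 20 reads) were whole reads within 0.1 read (100%). The design had allowed for counts, so limma was used on this unit and count tests only as alternatives. In the other tables the deposited values were TPM, which keep no depth.

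Tests used limma 3.58.1 (R 4.3.3), two-sided with an intensity trend, on log2(value + 1), for 14746 of 29413 genes at a mean of at least 10 (BMP table, 6 groups in 1 fit) or 12959 of 55416 at a mean of at least 1 (TGFb table). P-values were adjusted by Benjamini-Hochberg across the genes tested, with a threshold of 0.05, and log2 changes understate low genes. Recovered reads were tested with edgeR 4.0.16 and DESeq2 1.42.0. The tests were checked on simulated data. The floor of 3 reads covers counting error only. Replicate numbers come from the sample titles. Same-numbered samples deviated together from their group means for BMP3, BMP4, BMP5 and BMP7 against noBMP (every r over 0.1, from 0.158 to 0.553) and so pair them, but not for BMP2 (0.018 to 0.421), BMP2 with BMP4 (-0.04 to 0.298) or Tgfb (-0.019 to 0.141).

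Every Hox gene that passed a filter was described, those called in a comparison in every sample, and from the other lists at most the 3 largest rises and falls among called genes. Members and lists were chosen with earlier results of these data known. Alternatives were other pseudocounts, filters, scalings and tools, the replicate block and leaving out each sample. Promoter windows are RefSeq sequence of GRCm38.p6, a different build from the submitters', and gene overlaps are from GENCODE M21. 0 columns were left unmapped. Values of a few members of the lists are not reported here, although the counts and sums include them.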

Additional observations from a re-analysis of the deposited data

Results flagged for a closer look

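In 28 groups of 4 samples examined for a value far from the others, 1 was marked, and chance marks about 1 in 20. Among the BMP2 samples of Hoxa4, BMP2 VI was above the others at 2.53 normalized counts, against 1.14, 1.28 and 1.18, a difference of 1 read. Organoids given BMP2 and those given BMP4 differed in 2 tested Hox genes, both higher with BMP2. These were Hoxb4 with a log2 difference of 1.34 (SE 0.30, adjusted p = 0.000727) and Hoxa10 with 1.54 (SE 0.65, adjusted p = 0.0449, limma).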

How the results depend on the processing

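No result changed direction under any alternative run. Of the alternative values of the counts reported, 116 stayed within 1.5 times, 28 were higher and 16 lower. Of those of single genes, 251 kept their call and 36 lost it. With BMP2 the count of 2 called Hox genes became 7 at a mean of at least 1 and 8 without a filter, and the BMP4 count of 3 became 6 and 5. The F-test count of 5 became 9 at a mean of at least 1. BMP2 against BMP4 gave 1 in place of 2 with a pseudocount of 10, a mean of at least 1, scaling to the same total, quantile normalization, edgeR, or a fit of only those groups. BMP7 gave 1 in place of 0 with a pseudocount of 10, edgeR or DESeq2. With the replicate number as a block, BMP2 gave 4 (adding Hoxa7, -0.93, adjusted p = 0.0215, and Hoxa10, 1.10, adjusted p = 0.0384, limma), BMP5 1 and BMP7 1, and BMP2 against BMP4 added Hoxa9 (1.14, adjusted p = 0.0106, limma). The block changed no other call but that of Hoxa7 with BMP4. Settings chosen after seeing the data gave the following. Scaling to the same total without a filter gave 7 (BMP2), 7 (BMP4) and 8 (F-test). EdgeR at a mean of at least 1 gave 6 (BMP2), 5 (BMP4), 1 (BMP7) and 1 (BMP2 against BMP4). The block without a filter gave 9 (BMP2), 7 (BMP4), 1 (BMP5), 1 (BMP7), 4 (BMP2 against BMP4), 8 (F-test) and 0 (Tgfb). Leaving out 1 sample each gave 1 to 3 (BMP2), 0 to 0 (BMP3), 2 to 4 (BMP4), 0 to 1 (BMP5), 0 to 1 (BMP7), 1 to 2 (BMP2 against BMP4) and 3 to 5 (F-test, 3 without BMP5 III). The cause of these changes was not tested, other than that a filter changes which genes are tested. In the mesenchyme the 7 genes past 2-fold became 1 at a mean of at least 10 (Hoxa5, of 12 tested) and 1 at 4-fold (Hoxa7). A mean of at least 50 left no Hox gene, and for Tgfb no Hox gene passed any filter on the mean, so those settings gave no value. Depth limits the Hox genes to 43 to 324 reads per sample.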

Other observations

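Replicate numbers shared an order in some Hoxa genes of the BMP experiment. Hoxa10 was highest in replicate II in 5 of 6 groups, and Hoxa7 in 4 of 6. In the 3 groups that have a replicate IV, Hoxa7 was lowest there in all 3 groups. Hoxa9 was highest in replicate II in 3 groups and in replicate VI in 3 groups. Hoxb4 had another order, highest in replicate VI in 4 groups and lowest in replicate II in 4. BMP7 II held the highest value of Hoxa9 (78.9) and of Hoxa10 (34.5) in the experiment. Its count of Acta2, a smooth muscle gene, was 101 (111 reads). The other smooth muscle markers had few or no reads in that sample, with Actg2 at 1, Myh11 at 2 and Cnn1 and Des at 0. The part of cell types in these values was not tested.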
